A study of Mus musculus with 6 samples.

Results

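The 40 genes described here encode the kinetochore, the centromere, the chromosomal passenger complex and the spindle checkpoint of the mouse. They were chosen by symbol from the CENP, NDC80, SKA, MIS12, passenger and checkpoint families and found by Ensembl gene ID among the 56884 genes of the deposited count table. All 40 had a row, and all 40 passed the filter on low counts. RNA had been sequenced from 3 wild-type (WT) splenic samples enriched by B cell selection and from 3 whole spleens of mice labelled passage 1 (P1). The P1 mice belong to an adoptive transfer model of mantle cell lymphoma made from Eµ-SOX11CCND1 cells, in which the transcription factor SOX11 and the cyclin CCND1 are the named drivers and Eµ is the immunoglobulin heavy chain enhancer that directs a transgene to B cells. The WT columns carry the strain name BL6, and ages, sexes, the strain of the recipients, any treatment of them and the number of donors are not given in the sources used here. The WT samples were selected for B cells and the P1 samples were not, so the genotype, the transfer and the selection cannot be told apart. No WT column names its mouse, so the WT libraries carry the letters A to C in the order of the columns, whereas the P1 libraries keep their labelled numbers 3, 4 and 5. Values given in threes follow that order.

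Kinetochores are the protein plates that assemble on centromeric chromatin marked by the histone variant CENP-A and that hold chromosomes to spindle microtubules in mitosis. The spindle checkpoint reads kinetochores that lack such attachment and delays anaphase, and the passenger complex releases faulty attachments. Most of these genes are transcribed in the G2 and M phases of dividing cells, and resting splenic B cells divide little.

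Library totals ran from 12196413 to 14266132 counts in WT and from 7510327 to 10363396 in P1. P1 4 stood apart from the other libraries. Its TMM (trimmed mean of M values) scaling factor was 0.578, against 1.086 to 1.184 in the other 5, and 17.4% of its counts were mitochondrial, against 0.0854% and 3.4% in P1 5 and P1 3 and 0.569% to 1.13% in WT. B cell markers summed to 20850, 23010 and 22480 normalised CPM (counts scaled to TMM-adjusted library totals) in WT and to 4210, 2094 and 9735 in P1, and 18 of 20 were lower in P1. Vpreb3 was the B cell marker at 0, in P1 4. Red cell precursor markers, headed by the globins, summed to 93.75 to 134.9 in WT and to 38210, 203700 and 7818 in P1 3, 4 and 5, and all 20 were higher. All 12 neutrophil markers were higher as well, with sums of 2.44 to 9.902 in WT and 1002 to 7447 in P1, although Ms4a3 was at 0 in WT A and B and Prtn3 and Mmp8 in WT B. All 12 T cell markers were higher, with sums of 45.72 to 61.3 in WT and 327 to 770 in P1. Macrophage markers summed to 236.8 to 605.9 in WT and 564.4 to 2673 in P1, with 2 of 10 higher. Of 6 stromal markers 5 were higher and 1, Pecam1, was lower. Their sums were 261.3 to 312.7 in WT and 89.55 to 204.1 in P1. Most of the WT sum was Pecam1, which had 259.5, 309.9 and 260.6 in WT and 84.7, 104.6 and 74.7 in P1. The fall of the sum was therefore not shared by the other stromal markers. Col1a2 and Col3a1 were at 0 in WT A and C and Col1a1 in WT A. The part of these other cell types in the results below was not tested.

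**Figure D1:**
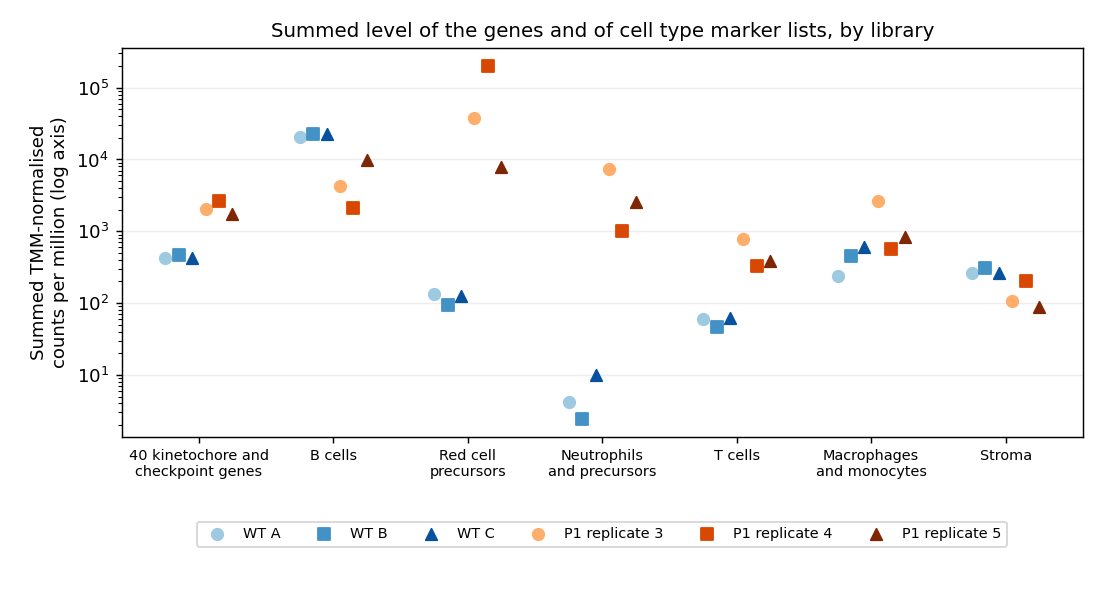
Summed normalised CPM (log axis) of the 40 members and of 6 marker lists in each library, with 1 point per library. The members lie between 419 and 465 in the 3 WT libraries and between 1733 and 2612 in the 3 P1 libraries, and the red cell precursor markers spread over the widest range among the P1 libraries.

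Genes of every kinetochore and checkpoint complex rose in P1 spleen relative to WT B cells. Their summed level was 419, 465 and 427 normalised CPM in WT and 2067, 2612 and 1733 in P1 3, 4 and 5, which is 4.73, 5.98 and 3.97 times the WT mean. The 2 groups did not overlap. As a share of all counts the members made up 0.0463% to 0.0507% of a WT library and 0.15% to 0.232% of a P1 library. Of the 40 members 34 rose, 0 fell and 6 did not pass the edgeR quasi-likelihood F-test with Benjamini-Hochberg adjustment over 15462 genes at 0.05. Among all genes tested 16.9% were higher and 11% lower. The median log2 fold change of the members was 2.88, beside 0.02 over all genes tested. In 36 members every P1 library lay above every WT library, beside 22.9% of all genes. A log2 fold change of at least 3 with a call was reached by 18 members, beside 7.95% of all genes. The 6 that did not pass were Cenpt, Cenpq, Cenpo, Mis12, Ska2 and Bub3. In bulk RNA, more cells that express a gene and more RNA per cell cannot be told apart.

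Of the 34 members that rose, 33 were also called without P1 3, 33 without P1 4 and 32 without P1 5, beside 17.9%, 17% and 19.4% of all genes called higher in those fits. Mad2l1 lost its call without P1 3, Cenpw without P1 4, and both without P1 5. In P1 5, which had the most B cell RNA and the least red cell RNA of the 3, 37 members lay above the highest WT library, beside 41.5% of all genes. The red cell markers of P1 5 still summed to 7818, against 93.75 to 134.9 in WT. Its neutrophil and T cell marker sums, 2598 and 380.8, lay between those of P1 4 (1002 and 327) and P1 3 (7447 and 770). Set alone against WT, with its spread assumed to equal that between WT libraries, P1 5 gave 35 members higher and 1 lower, Cenpq, and the median log2 fold change was 2.56. In that fit, which called more genes, 23.2% of all genes were higher and 22% lower. That check was chosen after the marker levels had been seen. When the libraries were scaled instead so that B cell markers were level, all 40 members were higher, but so were 89.5% of all genes, and the shift of all genes was 2.94. A change of scaling moves members and other genes of a library alike, so the distance between the 2 medians can change little by construction. It was 2.857 by default, 2.863 with B cell markers levelled and 2.9 with library totals as the scaling.

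**Figure D2:**
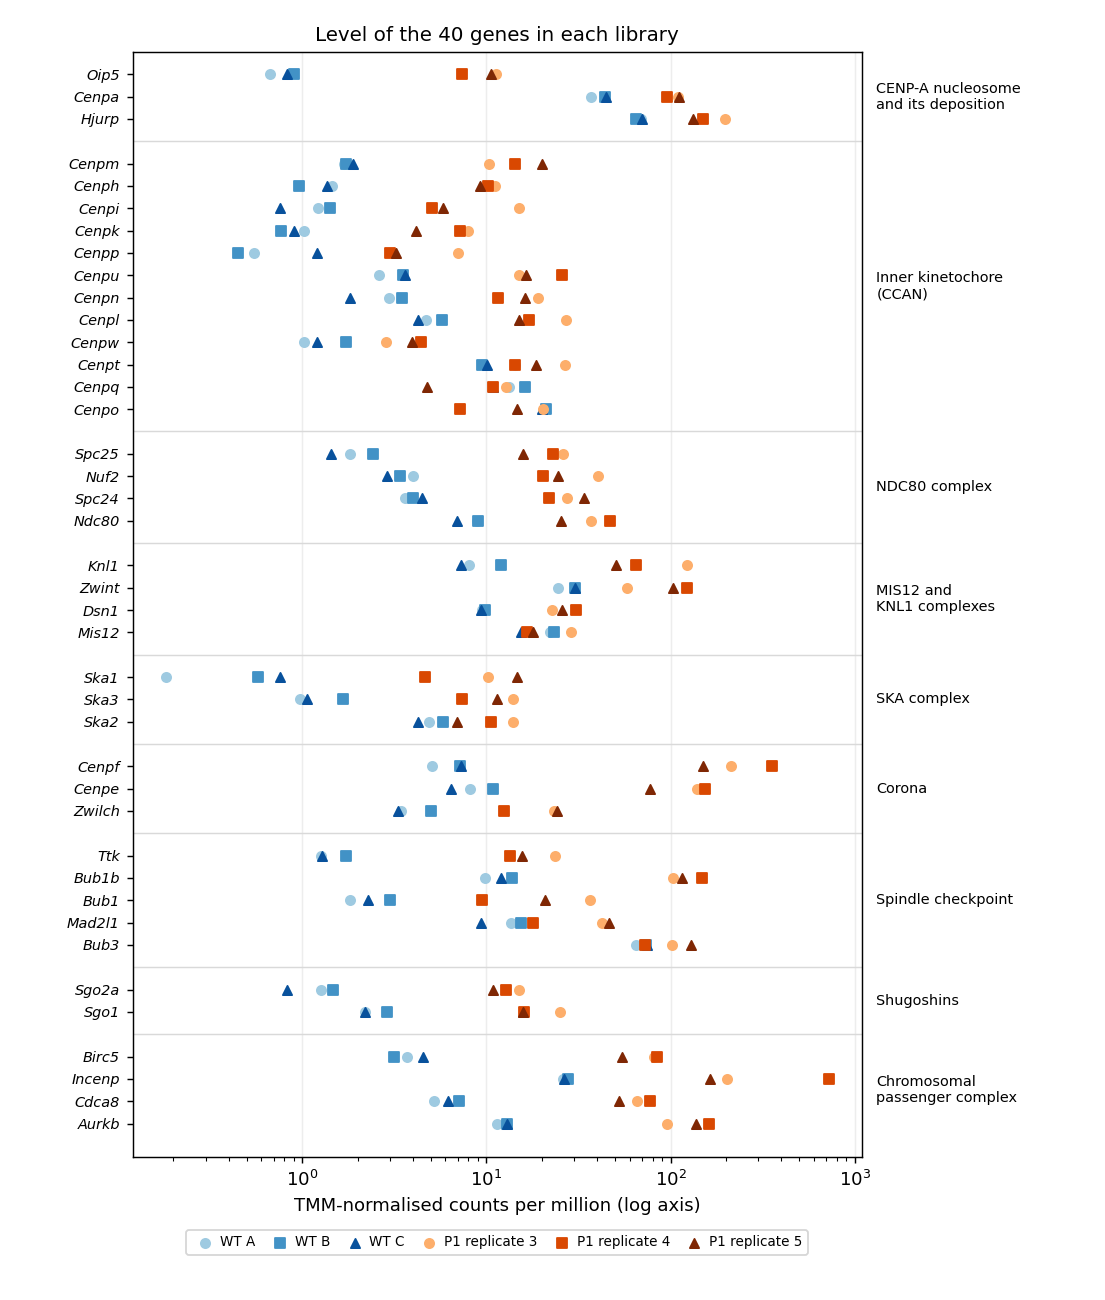
Normalised CPM (log axis) of each of the 40 members in the 3 WT and 3 P1 libraries, 1 point per library, grouped by role. The P1 points lie above all WT points for 36 genes, and Cenpq, Cenpo, Mis12 and Bub3 overlap.

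**Figure D3:**
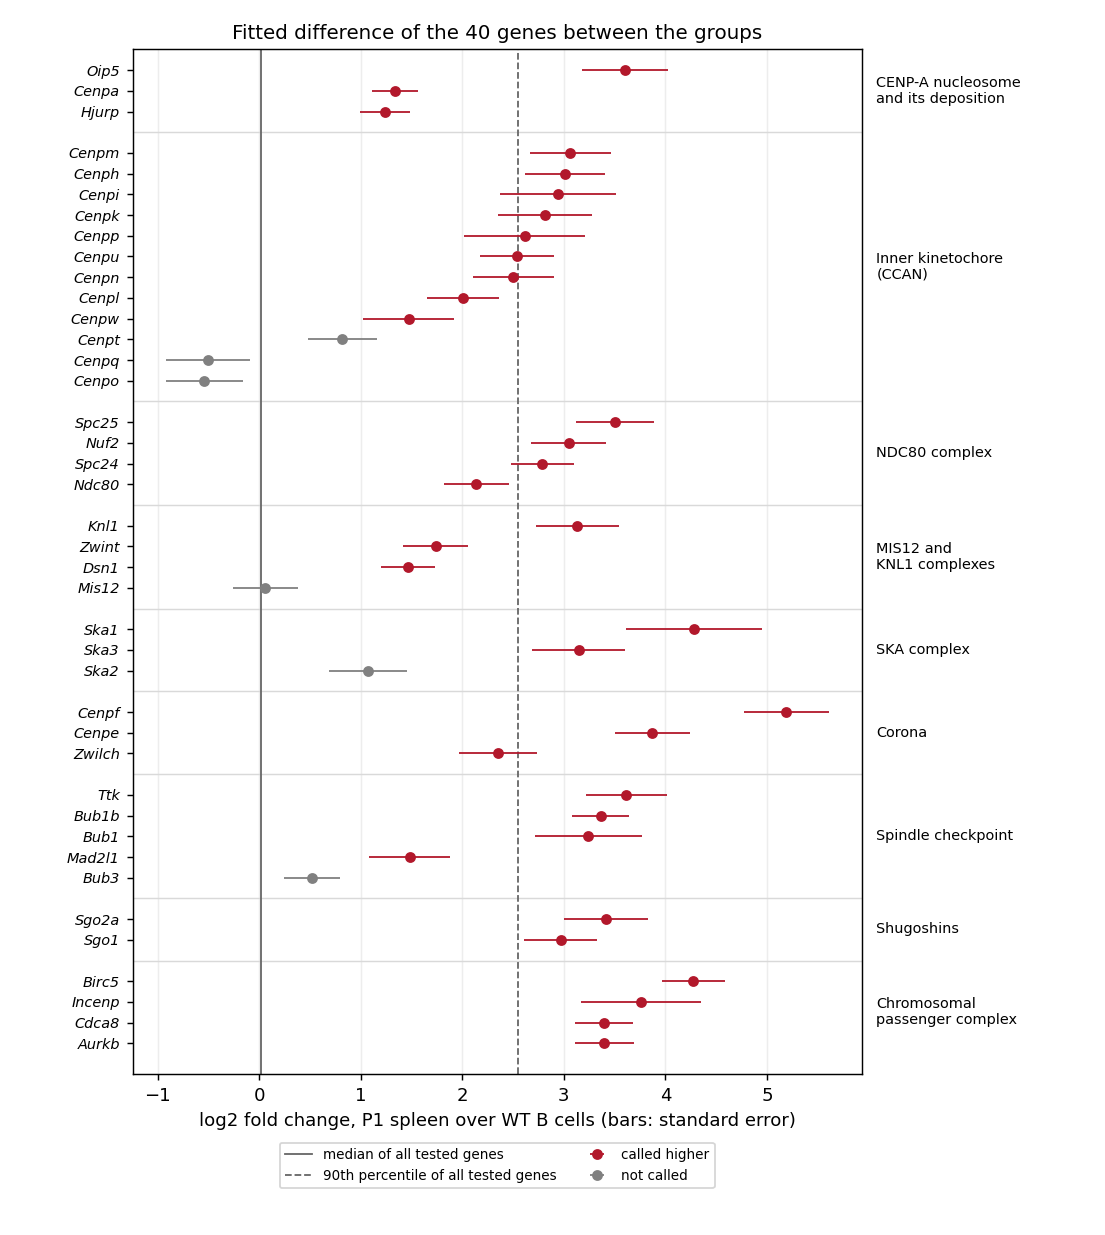
Fitted log2 fold change (P1 minus WT) of each member with its standard error, ordered within role, red where called and grey where not, with a solid line at the median of all genes tested and a dashed line at their 90th percentile (2.545). Values run from -0.54 for Cenpo to 5.19 for Cenpf, and the 6 members not called lie below the 34 called.

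Promoters of genes expressed in G2 and M often hold a CHR element (cell cycle genes homology region, TTTGAA), which binds the MuvB and DREAM complexes, near CCAAT boxes (CCAAT), which bind NF-Y. E2F factors bind related sites (here TTTNNCGC). The promoters of the 4 members with the smallest p that had an entry are shown because they rose most clearly, and those of Mis12 and Cenpq, chosen after their values were seen, because they were the 2 members whose fitted change was nearest 0. Sequences run 5′ to 3′ on the gene's own strand from 250 bases before to 30 bases after the RefSeq start, on the GRCm38.p6 build, and capitals mark CHR and CCAAT matches on either strand (ATTGG is CCAAT read on the other strand). The windows are chr11:117848987-117849266 (+) for Birc5, chr1:189688057-189688336 (-) for Cenpf, chr2:118597961-118598240 (+) for Bub1b, chr4:124936888-124937167 (-) for Cdca8, chr11:71019361-71019640 (+) for Mis12 and chr17:40934545-40934824 (-) for Cenpq.
Birc5: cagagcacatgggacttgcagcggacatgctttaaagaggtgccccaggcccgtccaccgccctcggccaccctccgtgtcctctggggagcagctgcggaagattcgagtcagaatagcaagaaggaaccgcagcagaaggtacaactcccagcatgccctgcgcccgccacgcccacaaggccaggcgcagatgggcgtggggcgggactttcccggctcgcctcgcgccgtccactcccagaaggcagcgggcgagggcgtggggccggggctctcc
Cenpf: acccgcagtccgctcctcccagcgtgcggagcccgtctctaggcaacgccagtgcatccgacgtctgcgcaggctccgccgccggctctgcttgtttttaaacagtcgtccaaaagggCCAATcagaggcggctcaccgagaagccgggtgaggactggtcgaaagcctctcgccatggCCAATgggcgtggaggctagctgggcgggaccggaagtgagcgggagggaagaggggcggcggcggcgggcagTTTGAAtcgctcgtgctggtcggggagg
Bub1b: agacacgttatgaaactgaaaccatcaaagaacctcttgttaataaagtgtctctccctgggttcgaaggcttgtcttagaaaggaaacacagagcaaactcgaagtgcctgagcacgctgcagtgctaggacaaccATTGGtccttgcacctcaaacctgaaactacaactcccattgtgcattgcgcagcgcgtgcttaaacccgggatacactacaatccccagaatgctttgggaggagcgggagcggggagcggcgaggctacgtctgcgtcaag
Cdca8: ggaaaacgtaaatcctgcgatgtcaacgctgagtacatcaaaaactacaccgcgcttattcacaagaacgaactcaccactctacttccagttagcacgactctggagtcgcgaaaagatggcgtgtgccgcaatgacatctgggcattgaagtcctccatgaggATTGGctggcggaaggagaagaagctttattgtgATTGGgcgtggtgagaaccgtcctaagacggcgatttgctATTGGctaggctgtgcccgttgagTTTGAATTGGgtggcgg
Mis12: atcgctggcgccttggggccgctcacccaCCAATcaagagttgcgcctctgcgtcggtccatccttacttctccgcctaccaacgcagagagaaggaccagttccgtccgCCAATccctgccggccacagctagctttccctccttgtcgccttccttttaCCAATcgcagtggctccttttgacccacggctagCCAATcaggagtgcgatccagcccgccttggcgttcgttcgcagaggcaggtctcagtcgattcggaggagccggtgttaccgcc
Cenpq: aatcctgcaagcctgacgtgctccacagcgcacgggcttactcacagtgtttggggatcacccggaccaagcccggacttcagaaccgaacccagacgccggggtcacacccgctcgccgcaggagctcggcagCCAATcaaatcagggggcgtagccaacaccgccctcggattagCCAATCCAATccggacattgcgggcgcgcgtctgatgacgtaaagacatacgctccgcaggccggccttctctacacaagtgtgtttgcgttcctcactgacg
Cenpf had CHR at position 3 after its start and 2 CCAAT boxes upstream of it. Cdca8 had CHR at position 14 and 4 CCAAT matches, of which the last shares letters with the CHR. Bub1b had a CCAAT box at -113 and its CHR at position 41, past the stretch shown. Birc5 had no match in the window, and Mis12 and Cenpq had CCAAT boxes but no CHR. Bub3, not shown, had a fitted change of 0.52, almost as near 0 as the -0.505 of Cenpq, and it had CHR and CCAAT matches.

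Over the 35 members with a promoter entry (39 windows of 300 bases), CHR was found in 16 windows (41%), beside 17.9% of all 32851 windows. CCAAT was in 29 (74.4%), beside 37.4%, and the E2F-type letters in 8 (20.5%), beside 5.17%. CHR and CCAAT together were in 13 windows (33.3%), beside 6.95%. By gene, CHR was present in 14 of the 29 members that rose and in 1 of the 6 that did not pass, Bub3. CCAAT was present in 21 of 29 and 4 of 6. By gene, the E2F-type letters were in 6 of 29 and 1 of 6, and CHR with CCAAT in 11 of 29 and 1 of 6. Differences between the 29 and the 6 were not tested, and 6 genes are few for such a comparison. The 2 windows of Bub3 hold the same CHR, CCAAT and E2F-type matches, and both windows were counted. In Cdca8 and Cenpw a CHR match and a CCAAT match share letters and each was counted. Spc24, Zwilch, Ska1, Incenp and Aurkb had no entry. A match to these letters is a description of the window and not a measured site.

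**Figure D4:**
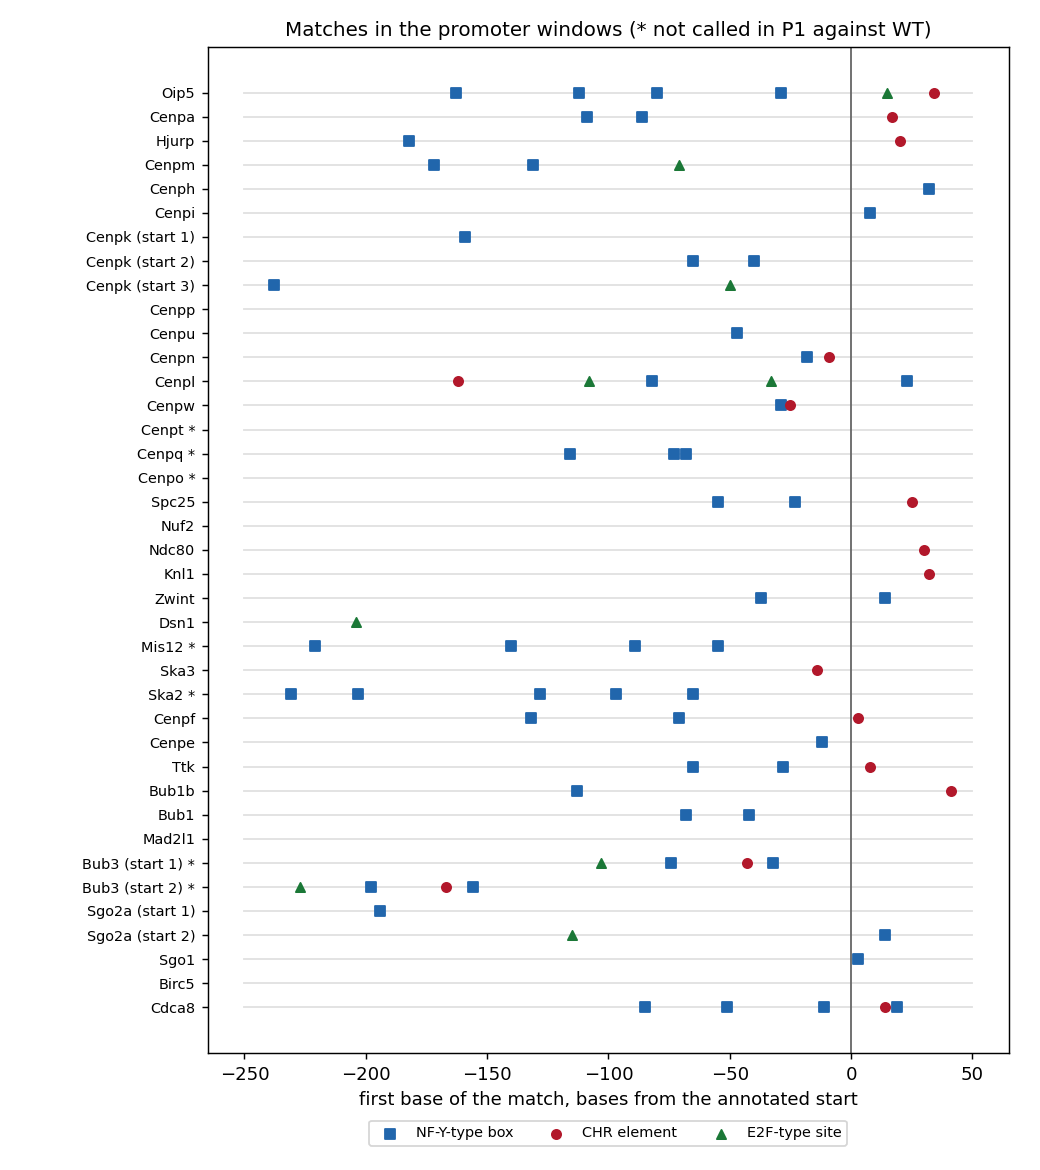
Position of each motif match (x axis, first base of the match in bases from the annotated start; squares CCAAT, circles CHR, triangles E2F-type) in the 39 promoter windows of members (rows; an asterisk marks genes not called). CHR matches lie mostly near the start, CCAAT matches mostly upstream of it, and the rows of Birc5, Nuf2, Mad2l1, Cenpp, Cenpt and Cenpo are empty.

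At the base of the kinetochore, all 3 genes of the CENP-A nucleosome and its deposition rose. Cenpa, the centromeric histone itself, had 37.2, 43.9 and 44.7 normalised CPM in WT and 109.9, 95.6 and 111.5 in P1. Its level was therefore already well above detection in WT B cells and the groups did not overlap. The log2 fold change was 1.33 ± 0.23 (standard error, as for all log2 fold changes here; adjusted p = 0.00359, edgeR). Hjurp, the chaperone that brings CENP-A to centromeres, had 68.8, 65.0 and 69.6 in WT and 197.8, 149.3 and 132.9 in P1, with a log2 fold change of 1.24 ± 0.25 (edgeR adjusted p = 0.00736). Hjurp lost its call when any 1 WT library was left out (adjusted p 0.0511 to 0.0609), and Cenpa and Hjurp both lost theirs with library totals as the scaling (0.0852 and 0.117). Oip5, which encodes MIS18-beta of the complex that licenses CENP-A loading, was the lowest of the 3 in WT at 0.667, 0.899 and 0.832. It reached 11.4, 7.41 and 10.6 in P1, the largest rise of the group at 3.60 ± 0.43 (edgeR adjusted p = 0.000919). Its WT counts were 11, 14 and 11. Of its exon length 9.67% lies over Nusap1 on the opposite strand, whose counts were 249 in WT and 1639 in P1. The part of Nusap1 reads in the Oip5 counts was not tested. The ratio of Cenpa to Hjurp did not separate the groups: its log2 value per kilobase was -0.19 ± 0.17 (SD, n = 3) in WT and -0.07 ± 0.30 in P1 (p = 0.7, exact permutation).

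The inner kinetochore, called CCAN, is the constitutive network that binds CENP-A chromatin. Of its 12 members 9 rose, with log2 fold changes from 1.47 to 3.06, and 3 did not pass. Cenpm had the largest rise, with 1.70, 1.73 and 1.89 normalised CPM in WT and 10.3, 14.4 and 20.1 in P1 (3.06 ± 0.40, edgeR adjusted p = 0.00128). Cenph, Cenpi and Cenpk, which with Cenpm belong to the subcomplex that recruits outer kinetochore proteins, rose by 3.01, 2.94 and 2.81 on the log2 scale, from means of 0.903 to 1.26 CPM in WT. Over these 3 genes the highest WT value was 1.45 CPM and the lowest P1 value 4.18. Cenpn and Cenpl, which bind each other and the CENP-A nucleosome, rose by 2.501 and 2.01. Cenpn had 2.97, 3.47 and 1.81 in WT and 19.1, 11.6 and 16.1 in P1. Cenpu, a member of the CENP-O subcomplex, rose by 2.54, from 2.61, 3.53 and 3.63 to 15.1, 25.7 and 16.4.

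Cenpp, of the same subcomplex, was at 0.545, 0.450 and 1.21 in WT and 7.05, 3.01 and 3.25 in P1. Its log2 fold change of 2.61 ± 0.60 passed (edgeR adjusted p = 0.0128), but not without WT A or WT B (0.0728 and 0.0767). Cenpw, a histone-fold protein that pairs with CENP-T, had 1.03, 1.73 and 1.21 in WT and 2.84, 4.40 and 3.94 in P1, all P1 above all WT. Its rise of 1.47 ± 0.45 lay close to the threshold (edgeR adjusted p = 0.0408), and the call was lost on leaving out any library but P1 3 (0.0619 to 0.182). Cenpt, its partner, which links centromeric DNA to NDC80, had 14.3, 9.503 and 10.1 in WT and 26.7, 14.4 and 18.6 in P1. Its P1 values lay above its WT values by a narrow margin, and 0.82 ± 0.34 did not pass (edgeR adjusted p = 0.108).

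Cenpq and Cenpo, both of the CENP-O subcomplex, were the 2 members with a negative estimate. Cenpq had 13.3, 16.1 and 10.8 in WT and 12.7, 10.9 and 4.76 in P1 (-0.51 ± 0.42, edgeR adjusted p = 0.403). The groups overlapped through P1 3 and P1 4, and P1 5 alone gave a log2 fold change of -1.52. That fit held 1 P1 library and took its spread from the WT libraries. Cenpo had 20.9, 21.1 and 20.0 in WT and 20.3, 7.17 and 14.6 in P1 (-0.54 ± 0.38, edgeR adjusted p = 0.324). The WT libraries lay close together, and of the P1 libraries only P1 3 reached them. Within the CENP-O subcomplex, Cenpu and Cenpp therefore rose while Cenpo and Cenpq did not pass, and a test of that difference was not made. All 4 have exons that overlap a gene on the opposite strand: 26.7% of Cenpu lies over Primpol, 19% of Cenpo over Adcy3, 12.3% of Cenpp over Ippk and 3.65% of Cenpq over Mut. Counts of these neighbours in WT and P1 were 870 and 316 for Primpol, 982 and 386 for Adcy3, 450 and 258 for Ippk and 627 and 385 for Mut. Library totals were lower in P1 as well. The strand setting of the counting is not given in the sources used here, so reads of the overlapping stretches cannot be assigned. Sgo2a over Kctd18 (35%) and Ska2 over Gm11491 (10.1%) are the others with at least 10% of their exons covered.

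The NDC80 complex is the 4-subunit rod that grips microtubules, and all 4 members rose. Spc25, of the kinetochore-facing end, rose most: 1.82, 2.44 and 1.44 normalised CPM in WT and 25.97, 23.1 and 15.9 in P1 (3.50 ± 0.38, edgeR adjusted p = 0.000783). Nuf2, the partner of Ndc80 at the microtubule end, rose by 3.05, from 4.00, 3.40 and 2.87 to 40.2, 20.4 and 24.6. Spc24, the partner of Spc25, rose by 2.79, and its P1 5 value was its highest. Ndc80 itself rose least, from 8.91, 9.05 and 6.95 to 37.2, 47.2 and 25.5 (2.14 ± 0.32, edgeR adjusted p = 0.00223). It was the most counted of the 4 in every WT library. The ratio of Ndc80 to Nuf2 overlapped between groups (difference -0.89 on the log2 scale, p = 0.2, exact permutation), as did that of Spc24 to Spc25 (-0.73, p = 0.3, exact permutation).

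The MIS12 and KNL1 complexes tie the inner kinetochore to NDC80 and provide the platform for BUB proteins. Knl1, the scaffold whose repeats are phosphorylated to recruit BUB proteins, had 8.06, 11.9 and 7.26 in WT and 123.4, 65.0 and 50.6 in P1 (3.13 ± 0.41, edgeR adjusted p = 0.00131). Zwint, the KNL1 partner, was higher to begin with, at 24.5, 30.4 and 30.3 in WT, and rose by 1.74 to 58.2, 123.1 and 103.0. P1 3 was thus the highest P1 library for Knl1 and the lowest for Zwint. Dsn1, a MIS12 complex subunit, went from 9.45, 9.82 and 9.37 to 22.8, 30.5 and 25.9 (1.46 ± 0.27, edgeR adjusted p = 0.00485), though not with library totals as the scaling (0.0944). Mis12 did not pass: it had 22.1, 23.4 and 15.4 in WT and 28.8, 16.7 and 17.9 in P1 (0.06 ± 0.32, edgeR adjusted p = 0.91), and the sign of its estimate turned in 5 of the other settings. Its groups overlapped.

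The SKA complex strengthens microtubule attachment. Ska1 was among the scarcest members in WT, with 3, 9 and 10 counts (0.182, 0.578 and 0.756 normalised CPM), and reached 10.2, 4.63 and 14.6 in P1, a log2 fold change of 4.29 ± 0.67 (edgeR adjusted p = 0.00262). Ska3, with Ska1 part of the microtubule-binding arm, rose by 3.15, from 0.9695, 1.67 and 1.06 to 14.0, 7.41 and 11.4. Ska2 had 4.91, 5.84 and 4.23 in WT and 13.9, 10.6 and 6.96 in P1, so that all P1 values lay above all WT values, but 1.07 ± 0.39 did not pass (edgeR adjusted p = 0.0714). Without P1 5 it did (1.28, edgeR adjusted p = 0.026).

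The 3 corona genes, of the outermost layer that catches microtubules, rose, and Cenpf among them had the largest log2 fold change of all 40 members. Cenpf had 5.09, 7.19 and 7.33 normalised CPM in WT and 213.2, 353.8 and 149.5 in P1 (5.19 ± 0.42, 36.5-fold, edgeR adjusted p = 0.000405). No value of either group came near the other, and with P1 5 alone the log2 fold change was 4.497. The gene (ENSMUSG00000026605) lies at chr1:189372803-189420283 on the minus strand of GRCm39, the build of the counts. Cenpe, the plus-end kinesin motor that carries chromosomes to the metaphase plate, rose by 3.87, from 8.12, 10.9 and 6.43 to 140.0, 154.6 and 77.7. Zwilch, a subunit of the RZZ complex that brings dynein to kinetochores, went from 3.45, 5.01 and 3.33 to 23.4, 12.5 and 24.2 (2.35 ± 0.38, edgeR adjusted p = 0.0031). Relative to Cenpf, Cenpe was 1.27 lower in P1 on the log2 scale of their ratio, and the groups did not overlap (p = 0.1, exact permutation).

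Of the 5 spindle checkpoint genes 4 rose. Ttk, which encodes the MPS1 kinase that starts checkpoint signalling, had 1.27, 1.73 and 1.29 in WT and 23.7, 13.4 and 15.7 in P1 (3.62 ± 0.40, edgeR adjusted p = 0.000788). Bub1b, which encodes BUBR1 of the mitotic checkpoint complex, rose by 3.36 ± 0.28, from 9.88, 13.7 and 12.0 to 103.2, 147.4 and 116.0 (edgeR adjusted p = 0.000405). Bub1, the kinase that phosphorylates histone H2A at centromeres, rose by 3.24, from 1.82, 3.02 and 2.27 to widely spread P1 values of 36.6, 9.49 and 20.9. Mad2l1, which encodes the MAD2 protein that binds CDC20, had 13.6, 15.4 and 9.37 in WT and 42.7, 17.8 and 46.2 in P1. P1 4 lay close to the WT range, and 1.48 ± 0.40 passed (edgeR adjusted p = 0.0261) but not without WT A, B or C, P1 3 or P1 5 (0.0564 to 0.113). Without P1 4 it was 1.82 (edgeR adjusted p = 0.00496).

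Bub3, the WD-repeat protein that carries BUB1 and BUBR1 to kinetochores, did not pass. It had 64.8, 73.5 and 74.5 normalised CPM in WT and 102.5, 73.1 and 129.5 in P1 (0.52 ± 0.27, edgeR adjusted p = 0.189). P1 4 lay inside the WT range, and without it the estimate was 0.73 (edgeR adjusted p = 0.0339). Bub3 (ENSMUSG00000066979, chr7:131161951-131173624, plus strand, GRCm39) had the highest WT level of all members per kilobase, 10.1 ± 0.8 RPKM (SD, n = 3). Per kilobase, Bub1b stood below Bub3 in every WT library and above it in every P1 library: the log2 ratio was -2.00, -1.70 and -1.92 in WT and 0.72, 1.72 and 0.55 in P1, a difference of 2.87 (p = 0.1, exact permutation).

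Both shugoshins, which protect centromeric cohesin, rose. Sgo2a had 1.27, 1.48 and 0.832 in WT and 15.0, 12.7 and 10.9 in P1 (3.41 ± 0.41, edgeR adjusted p = 0.00096), and Sgo1 went from 2.18, 2.89 and 2.19 to 25.0, 15.97 and 15.9 (2.97 ± 0.36, edgeR adjusted p = 0.00104). Sgo2a shares 35% of its exon length with Kctd18 on the opposite strand, as given above.

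The passenger complex, the AURKB kinase with its scaffold and targeting subunits, rose as a whole, with log2 fold changes of 3.40 to 4.28. Birc5, which encodes survivin, the subunit that anchors the complex to centromeric histone H3, had the smallest p of all members: 3.70, 3.15 and 4.54 normalised CPM in WT and 81.5, 84.7 and 54.5 in P1 (4.28 ± 0.31, edgeR adjusted p = 0.000359). Cdca8, which encodes borealin, was the least changed with Aurkb, at 5.21, 7.13 and 6.20 in WT and 65.5, 77.8 and 52.7 in P1 (3.40 ± 0.29, edgeR adjusted p = 0.000405). Aurkb, the kinase, had 11.5, 12.9 and 13.0 in WT and 95.9, 161.5 and 137.3 in P1 (3.40 ± 0.29, edgeR adjusted p = 0.000414). For these 3 genes the highest P1 library was less than 2 times the lowest.

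Incenp, the scaffold (ENSMUSG00000024660, chr19:9849660-9876915, minus strand, GRCm39), was less even. It had 26.2, 27.8 and 26.5 in WT and 202.5, 722.9 and 164.8 in P1, so P1 4 stood at over 3 times the others. The size of that gap depends on the TMM factor of P1 4, 0.578. Raw counts were 2355, 3124 and 1421 in library totals of 10363396, 7510327 and 7969649. Relative to those totals P1 4 was still the highest, by a smaller margin. In P1 4 Incenp alone made up 27.7% of the summed level of the 40 members, against 9.8% and 9.51% in P1 3 and P1 5 and 5.98% to 6.26% in WT. Without P1 4 its log2 fold change was 2.80 in place of 3.76 ± 0.59 (edgeR adjusted p = 0.000955 and 0.0027). Incenp and Aurkb had the highest P1 levels per kilobase, 84.0 ± 72.1 and 44.7 ± 11.3 RPKM (SD, n = 3). P1 4 was also the library with the highest red cell marker sum, and the part of that RNA in the Incenp level was not tested.

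The fitted changes of the members differed in size, and the ratio of 2 genes within a library compares them without any scaling between libraries. Of 19 pairs of partners, 10 had log2 ratios per kilobase that did not overlap between groups, 8 with the first partner higher in P1 and 2 lower. The share of other gene pairs that separate in this way was not determined, so whether 10 of 19 is unusual is not known. Bub1 over Bub3 differed by 2.57, Ska1 over Ska2 by 3.23, Ska3 over Ska2 by 2.08, Ndc80 over Mis12 by 2.07, Dsn1 over Mis12 by 1.42, Knl1 over Zwint by 1.38 and Mad2l1 over Bub3 by 0.90. The pairs that were lower were Cenpe over Cenpf and Sgo1 over Sgo2a (-0.49). Each had p = 0.1 by exact permutation, the smallest that 3 against 3 libraries allow, and 0.19 after adjustment over the 19 pairs, so none reached 0.05. Of these 10 pairs, 7 hold Bub3, Mis12 or Ska2, which did not pass the test themselves. In 9 pairs the groups overlapped, among them Bub1 over Bub1b, Aurkb over Incenp (-0.06) and Cdca8 over Incenp (-0.04).

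**Figure D5:**
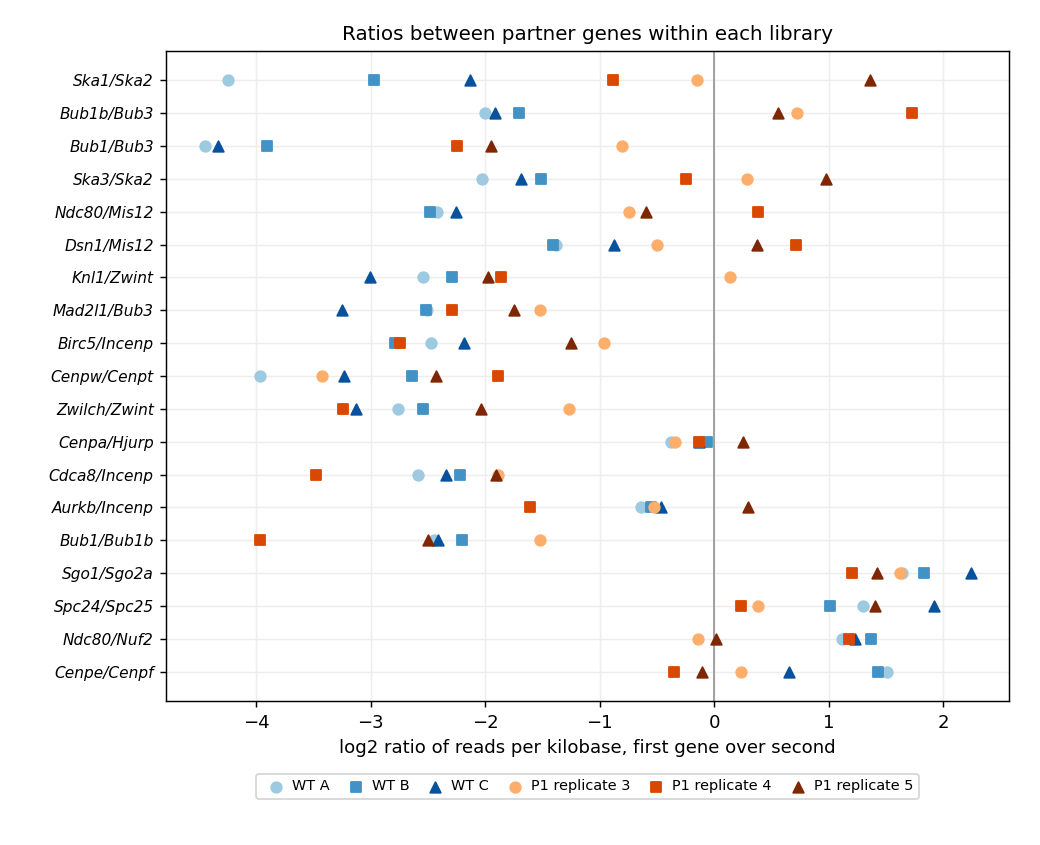
Log2 ratio of 2 partner genes per kilobase in each library, 1 point per library, for 19 pairs. The P1 points lie wholly above the WT points in 8 pairs and wholly below in 2.

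Within a group the P1 spleens differed more than the WT samples. The median SD of log2 level over 3 libraries was 0.23 in WT and 0.44 in P1 for the members, beside 0.19 and 0.55 for all genes tested. P1 3 held the highest value for 21 members, P1 4 for 12 and P1 5 for 7. With library totals as the scaling P1 4 held the lowest value for 35, so the order of P1 4 depended on its scaling factor.

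The rest of the pathway was read from the same fit. Of 38 other genes of the centromere, the checkpoint and the anaphase-promoting complex, 13 rose, 0 fell and 25 did not pass. Their median log2 fold change was 0.34. Over all genes tested 16.9% were higher and 11% lower. The 3 smallest p belonged to Cdc20, the activator that the checkpoint restrains (3.00 ± 0.28, edgeR adjusted p = 0.000565), Ube2c, the ubiquitin-conjugating enzyme of the complex (4.53 ± 0.43, edgeR adjusted p = 0.000579) and Kntc1, the ROD subunit that works with Zwilch (3.55 ± 0.37, edgeR adjusted p = 0.000733). Cdc20 had 9.39, 14.4 and 11.9 normalised CPM in WT and 80.5, 99.97 and 105.6 in P1, so no P1 library came near the WT range. Ube2c had 3.88, 4.11 and 3.93 in WT and 88.5, 138.8 and 48.6 in P1. Kntc1 had 4.97, 6.23 and 4.61 in WT and 78.4, 34.9 and 71.1 in P1. Of the 18 genes of the anaphase-promoting complex, its enzymes and its inhibitor, 4 rose, a share not far from that of all genes: Ube2c, Fzr1, Fbxo5 and Ube2s. The 14 core subunits did not pass, with log2 fold changes from -1.27 for Anapc10 to 0.70 for Anapc5. Of 16 other centromere and kinetochore genes 6 rose, among them Kntc1, Cdca5, Nsl1 and Spdl1, and 10 did not pass. Those 10, Cenps, Pmf1, Cenpc1, Mis18a, Cenpb, Bod1, Ppp1cc, Cenpx, Zw10 and Itgb3bp, had log2 fold changes from -1.098 to 0.94. Cenpc1, which encodes the CENP-C protein that links CENP-A chromatin to MIS12, was at 17.6, 19.7 and 14.0 in WT and 37.5, 18.1 and 21.2 in P1 (0.59 ± 0.34, edgeR adjusted p = 0.239). Of 4 other checkpoint genes 3 rose (Cdc20, Mad1l1 and Trip13), and Mad2l1bp did not pass. The rises of Mad1l1 and Fzr1 were uneven and largest in P1 4. Mad1l1 had 34.1, 28.3 and 35.2 in WT and 61.0, 349.6 and 114.7 in P1. Fzr1 had 53.6, 53.8 and 56.5 in WT and 357.9, 728.7 and 217.3 in P1.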

How the data were processed

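RNA from 3 WT splenic B cell samples and 3 P1 spleens was sequenced by the authors, with 50 ng of RNA and a directional kit per the labels' protocols. The authors deposited raw counts per gene. Trim Galore, HISAT2, featureCounts and GRCm39 are named, without versions, in the submitters' processing notes, and the counting strand is not given in the sources used here. Genes were matched by Ensembl ID, and 51948 of 56884 had a symbol. Counts were filtered with filterByExpr by group (minimum count 10), scaled by TMM and tested with edgeR 4.0.16 (limma 3.58.1, R 4.3.3; robust quasi-likelihood F-test, no covariates), with Benjamini-Hochberg adjustment over 15462 genes at 0.05. The procedure was tested on simulated data. Normalised CPM are counts scaled to TMM-adjusted totals, RPKM use the table's gene length, and ratios used counts plus 0.5. The labels name 3 mice per group but not donors, and 2 of the 3 WT column names share a prefix whose meaning is not given, so p-values measure only the spread between these samples. Within each group no 2 libraries were repeat readings of 1 library (chi-square per degree of freedom 19.5 to 280.2). That value cannot show whether 2 libraries came from different mice. Alternatives were other scalings, DESeq2 1.42.0, no filter and each library left out. Members, lists and tests were chosen with earlier results of these data known. Named with every library's value, by rule, were the largest and smallest change of each role, members not called and those whose call an alternative changed, and of the other pathway genes the 3 with the smallest p. RefSeq promoter windows are on GRCm38.p6, and gene coordinates of the count table are on GRCm39.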

Additional observations from a re-analysis of the deposited data

How the results depend on the processing

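Of 40 members, 34 were higher by default, 34 with relative log expression factors, 29 with library totals, 40 with B cell markers levelled, 35 in DESeq2, 33 without the low-count filter and 30 to 34 with 1 library left out. Leaving out P1 3 and P1 4 together, chosen after seeing the data, gave 35 higher and 1 lower. The median log2 fold change of the members was 2.66 with library totals, 5.80 with B cell markers levelled, 2.56 without P1 3 and P1 4, and 2.67 to 2.92 with 1 library left out. Over all genes 4320 were called by default, 13940 with B cell markers levelled (99.2% of them higher, against 60.6%), 7955 without P1 3 and P1 4, and 2459 to 5221 with 1 library left out. Of the other pathway genes 38 were higher with B cell markers levelled and 21 without P1 3 and P1 4. Among them 1 was lower in DESeq2, 1 without P1 3 and P1 4, and 0 to 1 with 1 library left out. Mis12 turned to -0.15 with library totals, -0.055 without the filter and -0.21 without P1 3 and P1 4, and ran from -0.24 to 0.23 with 1 library left out. Cenpo and Cenpq turned to 2.21 and 2.56 with B cell markers levelled. With library totals Cenpa, Hjurp, Cenpw, Dsn1 and Mad2l1 lost their calls, and without the filter Cenpw did (edgeR adjusted p 0.0852, 0.117, 0.177, 0.0944, 0.11 and 0.146). Ska2 passed in DESeq2 (adjusted p = 0.0231). The number of separated partner pairs was 10 to 14 under every setting tried for it. No paired analysis was made because the labels give no pairing between WT and P1 mice. The scarcest counts were those of Ska1, 3 to 10 per WT library, and its call was kept under every setting.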
